A study of Mus musculus with 2 samples.

Results

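The genes described here are 4 CXC chemokines, Cxcl1, Cxcl2, Cxcl10 and Cxcl16, and Pf4, which encodes platelet factor 4, itself a CXC chemokine. They were chosen by name, 5 of the 31053 genes counted, and all 5 were detected. Living CD45+ leukocytes were sorted from cochleae of 6 mice pooled per condition, and each pool was stained with its own hashtag antibody before the cells were captured together as 1 library. The pools were sham (hashtag 1) and 3, 7 and 14 days after noise exposure (hashtags 2, 3 and 4). The labels call the control animals sham treated in one place and untreated in another, and all pools shared the Accutase digestion and the sort. Strain, sex, age and the level of the noise are not given in the sources used here. With 1 pool per condition there is no replicate check between conditions, so every interval given for a pool covers counting error only, and the condition, the pool and the hashtag cannot be told apart.

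A barcode was given a condition when its top hashtag had at least 10 UMIs and at least 80% of its hashtag UMIs. This held for 1359 of 1556 barcodes, and 1285 of them passed the cell filter: 341 from the sham pool, 551 from day 3, 216 from day 7 and 177 from day 14. Median depth ran from 6528 UMIs per cell in the sham pool to 8378 in the day 3 pool. Cells were gated into lineages by lists of marker genes that hold none of the 5 chemokines. The gates took 352 mature and 163 immature neutrophils, 233 cells of the B lineage, 85 T cells, 84 NK cells, 25 macrophages, 41 monocytes, 15 dendritic cells, 18 plasmacytoid dendritic cells, 12 mast cells or basophils, 33 myeloid progenitors, 6 megakaryocyte or platelet barcodes and 1 erythroid cell. A further 16 cells carried markers of several families, called mixed here, and 201 passed no gate. Ly6g, a neutrophil surface gene outside the marker lists, followed the gates, with 1826 CPM in mature neutrophils against 3.81 CPM in mononuclear phagocytes (macrophages, monocytes and dendritic cells). Other such genes followed them only in part. Nkg7 had 2237 CPM in NK cells, but also 2843 CPM in the 1 erythroid cell and 802.0 CPM in myeloid progenitors. Cd79a had 1978 CPM in the B lineage, but also 908.6 CPM in the 201 ungated cells. CPM is the gene's UMIs per 1000000 UMIs of all cells of a lineage summed. UMIs were not divided by transcript length, so levels are compared between lineages and pools for 1 gene at a time and never between genes.

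Chemokines are small secreted proteins that draw leukocytes along a gradient by binding seven-transmembrane receptors. CXCL1 and CXCL2 bind CXCR2, the receptor by which neutrophils are recruited, and their genes are rapidly induced through NF-kB in cells that meet a danger signal. CXCL10 is made in response to interferons and binds CXCR3 on activated T and NK cells. CXCL16 is anchored in the membrane of macrophages and dendritic cells, is shed by the proteases ADAM10 and ADAM17, and binds CXCR6 on T and NK cells. Platelet factor 4 is stored in the alpha granules of platelets and is also expressed by some tissue macrophages.

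Pf4, Cxcl1 and Cxcl2 lie together on chromosome 5 (GRCm38, plus strand), in a span of 133.504 kb from 90772435 to 90905938 that also holds Cxcl3 and Cxcl15. Pf4 runs from 90772435 to 90773383, Cxcl1 from 90891241 to 90893115 and Cxcl2 from 90903871 to 90905938. Cxcl10 lies 1.44 Mb away on the same chromosome, from 92346638 to 92348889 on the minus strand, and Cxcl16 on chromosome 11, from 70453983 to 70459984 on the minus strand. The neighbours Cxcl3 and Cxcl15 had 6 and 2 UMIs in the 1285 cells, against 4803 for Cxcl2 and 1839 for Pf4. The RefSeq promoter table (GRCm38.p6) held 4 of the 5 genes, with no entry for Cxcl16. The promoters of Cxcl1, Cxcl2 and Cxcl10 are shown because the NF-kB and interferon gene lists are set beside these chemokines further on. Each runs 5′ to 3′ on the strand of its gene and ends before the first transcribed base. Capitals mark matches to the kB consensus, to the core of the interferon-stimulated response element (GAAA, any 2 bases, GAAA) and to AGATAA, all searched on both strands.
Cxcl1, chr5:90890995-90891240, plus strand: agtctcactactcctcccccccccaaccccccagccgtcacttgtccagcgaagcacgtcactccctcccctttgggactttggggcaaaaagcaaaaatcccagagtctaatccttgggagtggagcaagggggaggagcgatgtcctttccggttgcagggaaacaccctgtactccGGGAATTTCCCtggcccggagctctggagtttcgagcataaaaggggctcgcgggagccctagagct
Cxcl2, chr5:90903649-90903870, plus strand: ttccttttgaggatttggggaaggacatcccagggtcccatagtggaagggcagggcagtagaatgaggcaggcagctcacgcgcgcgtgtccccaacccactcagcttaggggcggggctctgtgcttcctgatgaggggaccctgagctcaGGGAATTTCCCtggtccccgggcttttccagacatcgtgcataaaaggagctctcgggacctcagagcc
Cxcl10, chr5:92348890-92349139, minus strand: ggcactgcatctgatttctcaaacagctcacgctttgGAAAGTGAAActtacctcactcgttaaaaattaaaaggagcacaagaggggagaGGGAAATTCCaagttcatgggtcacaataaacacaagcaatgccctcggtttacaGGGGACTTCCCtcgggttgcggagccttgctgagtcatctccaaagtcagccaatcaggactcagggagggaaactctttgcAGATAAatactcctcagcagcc
Cxcl1 and Cxcl2 carried the same kB match, GGGAATTTCC, 71 and 97 bases before their RefSeq starts. The match reads as a kB site on the other strand as well, shifted by 1 base. Cxcl10 carried the kB matches GGGAAATTCC and GGGGACTTCC, the second overlapping a further match, and the interferon element match GAAAGTGAAA 213 bases before its start. The Pf4 promoter held none of the 3 motifs in its 250 bases. Over 32851 promoters with the same 250-base window, 7.25% held the kB consensus, 2.98% the interferon element core and 9.99% AGATAA. These matches describe the letters of the window and no binding was measured.

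The UMIs of the 5 genes were spread over very different numbers of cells. Cxcl2 had 4803 UMIs in 316 cells, and its top cell held 4.58% of them. Cxcl16 had 229 UMIs in 55 cells, with 7.42% in the top cell. Cxcl10 had 148 UMIs in 25 cells, 37 of them in the top cell. Cxcl1 had 39 UMIs in 14 cells, with 9 in the top cell. Pf4 had 1839 UMIs in 43 cells, and 1 cell held 51.4% of them. Over all pools together, Cxcl2 and Cxcl16 thus rested least on a top cell, whereas a level of Cxcl1, Cxcl10 or Pf4 in a pool was often the level of 1 cell. Within a pool and lineage, 1 cell could hold most of the Cxcl2 as well, 66.1% in sham mononuclear phagocytes and 98.2% in sham mast cells or basophils. Cxcl16 in day 14 phagocytes was 6 UMIs in 2 cells.

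**Figure D1:**
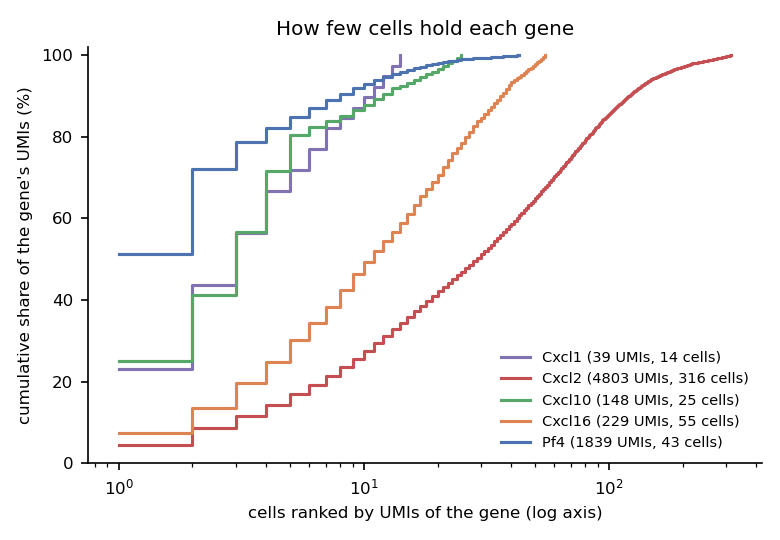
Cumulative share of each gene's UMIs (y axis, %) over cells ranked by their UMIs of that gene (x axis, log scale), for the 1285 analysed cells, 1 line per gene. The Pf4 line starts at 51.4% with 1 cell and the Cxcl2 line at 4.58%, and 29 cells held 50% of the Cxcl2 UMIs.

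**Figure D2:**
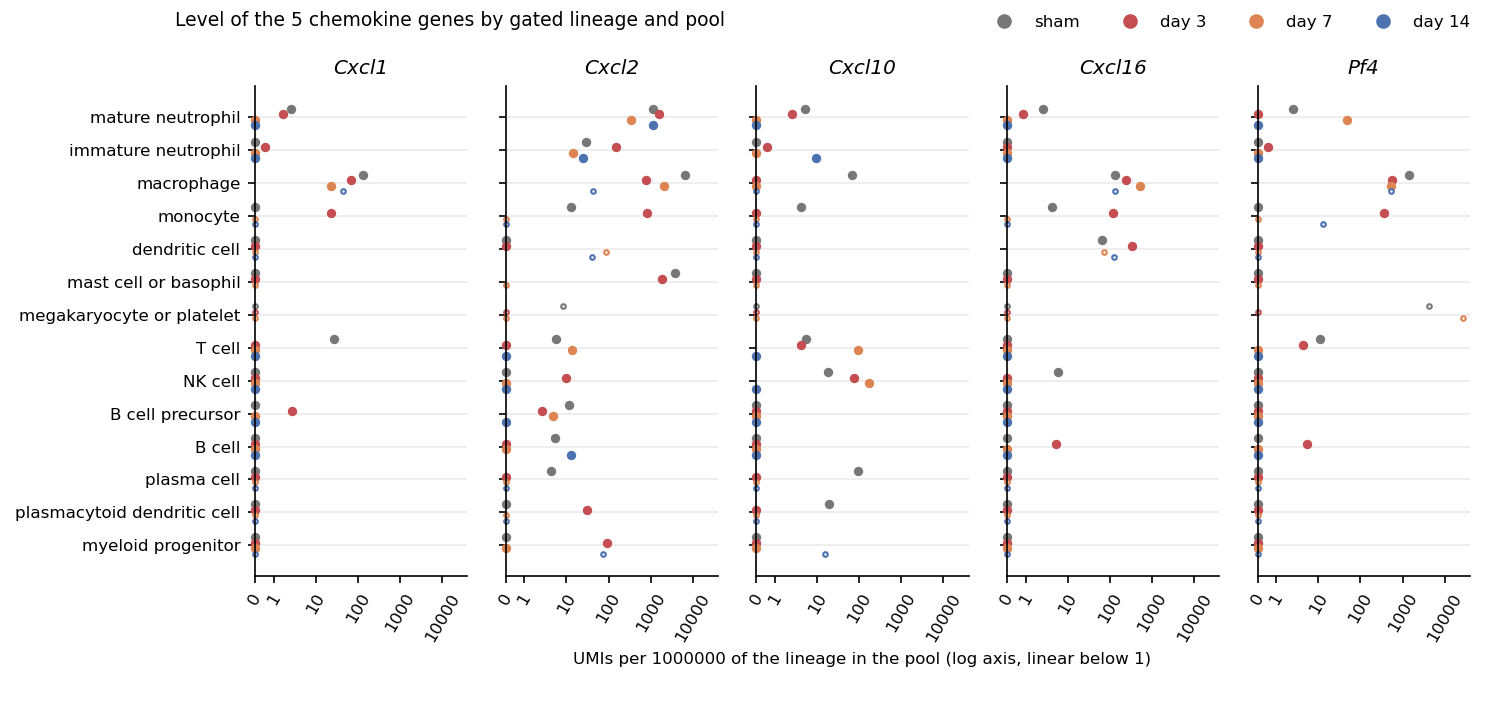
Level of each gene (x axis, UMIs per 1000000 of the lineage in the pool, log axis that is linear below 1) by gated lineage (rows), with 1 point per pool and small open points where the pool held fewer than 5 cells of the lineage. Cxcl2 points are highest in macrophages, mast cells or basophils and mature neutrophils, Cxcl16 points in macrophages, monocytes and dendritic cells, and Pf4 points in megakaryocyte or platelet barcodes and macrophages.

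Cxcl2, the neutrophil-attracting chemokine with the most UMIs, was carried mainly by mature neutrophils, which held 2874 of its 4803 UMIs (59.8%). At least 1 Cxcl2 UMI was found in 213 of 352 mature neutrophils (60.5%, at a median of 6119.5 UMIs per cell), against 2 of 100 B cells (at a median of 5168 UMIs), taken as a lineage that should lack it. With each cell thinned to 2000 UMIs, 44.1% of mature neutrophils and 0 of 100 B cells had a Cxcl2 UMI (exact 95% upper limit for the B cells 3.62%). Summed over pools, the level was 2096 CPM in macrophages, 2072 CPM in mast cells or basophils, 1227 CPM in mature neutrophils, 451.7 CPM in monocytes and 100.2 CPM in immature neutrophils. It was 4.52 CPM in T cells, 4.30 CPM in NK cells and 4.05 CPM in the B lineage, with no cell of these above 1 UMI. The macrophage level ranged from 43.2 to 6732 CPM over the 4 pools and the mature neutrophil level from 342.9 to 1597 CPM, so the order of these lineages lay within the spread between pools.

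Lineages were compared with edgeR's quasi-likelihood test on UMIs summed per lineage and pool, with the pool as a term and Benjamini-Hochberg adjustment over 11084 genes, among them all 5 described here. The megakaryocyte or platelet gate had fewer than 5 cells in every pool, so it was not among the lineages compared. Cxcl2 was higher in mature neutrophils than in the mean of the other lineages (adjusted p = 6.21e-22, higher in 4 of 4 pools than in the B lineage, T cells and NK cells). Pf4 also passed this test (adjusted p = 0.000213), but on the 21 UMIs of 1 day 7 barcode described with Pf4, and the call was lost without the day 7 pool (adjusted p = 0.652). Cxcl1, Cxcl10 and Cxcl16 did not pass it (adjusted p = 0.11, 0.599 and 0.218). Of all genes tested, 52.6% passed in either direction and 25.3% were higher in neutrophils. Among the 8 CXC chemokine receptors, 5 were tested and Cxcr2 and Cxcr4 were higher in mature neutrophils. Cxcr2, the receptor for CXCL2 itself, had 937.1 CPM with UMIs in 340 of 352 mature neutrophils (96.6%), against 136.2 CPM in immature neutrophils (adjusted p over the other lineages = 9.38e-36). Ligand and receptor were thus counted in the same lineage.

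Among mature neutrophils, Cxcl2 was highest at day 3 and lowest at day 7. The level was 1159.6 CPM in the sham pool (95% interval 1056 to 1271, 62 cells), 1597 CPM at day 3 (1526 to 1671, 169 cells), 342.9 CPM at day 7 (289.7 to 403.0, 67 cells) and 1146 CPM at day 14 (1036 to 1264, 54 cells). The share of cells with a Cxcl2 UMI was 64.5%, 68.0%, 40.3% and 57.4% in the same order, so the day 7 pool was low in share as well as in level. Cells with at least 10 Cxcl2 UMIs were 16 of 62 in the sham pool, 55 of 169 at day 3, 4 of 67 at day 7 and 11 of 54 at day 14. Day 3 over sham was 1.38 (95% interval 1.24 to 1.53), day 7 over sham 0.296 (0.244 to 0.357) and day 14 over sham 0.988 (0.862 to 1.13). Cxcl2 was the only one of the 5 genes with at least 20 UMIs in the compared neutrophils at day 3 and day 14, and at day 7 the other was Pf4, through that 1 barcode. Past a 1.5-fold difference in either direction lay 23.5% of genes at day 3, 22.4% at day 7 and 25.4% at day 14. The day 7 difference in Cxcl2 was past it, and those at day 3 and day 14 were not. After thinning, the day 7 share was 20.6% and the sham share 46.6%.

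The Cxcl2 of a pool rested on a minority of its neutrophils. The top 10% of cells held 55.1% of the Cxcl2 UMIs of mature neutrophils in the sham pool, 47.7% at day 3, 72.1% at day 7 and 72.2% at day 14. The top cell alone held 16.4%, 6.63%, 19.7% and 28.1%. At day 14, 1 cell with 112 Cxcl2 UMIs lifted the level of the pool to 1146 CPM, against 842.9 CPM without it. The highest relative level was that of a shallow day 3 neutrophil with 124 Cxcl2 UMIs among 2935, and all 10 neutrophil markers of the gate were detected in it.

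**Figure D3:**
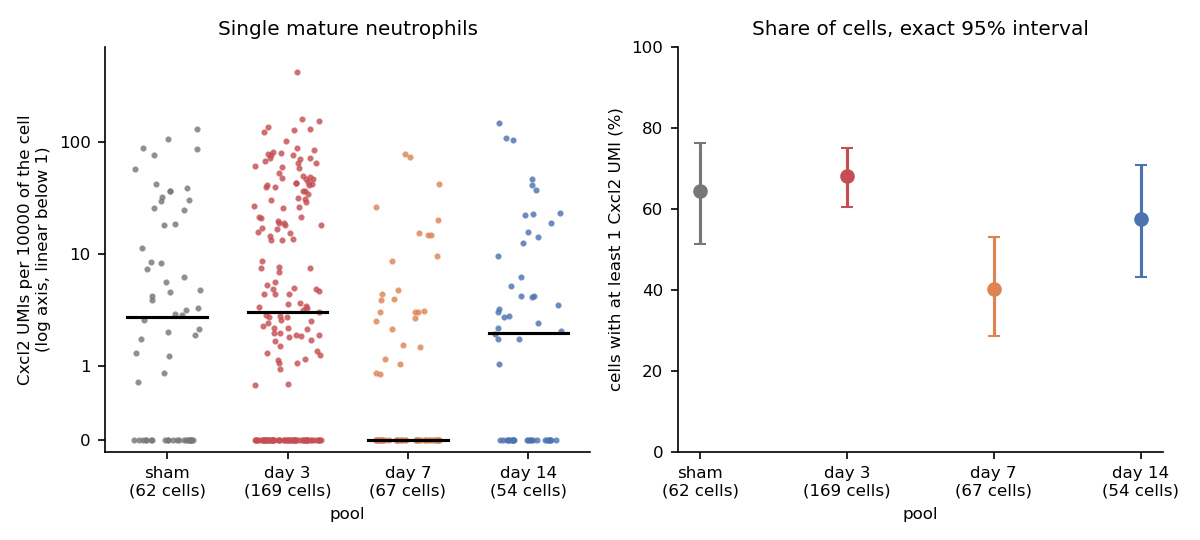
Left, Cxcl2 UMIs per 10000 UMIs of each mature neutrophil (y axis, log axis that is linear below 1), 1 point per cell by pool, with the median as a bar. Right, the share of mature neutrophils with at least 1 Cxcl2 UMI (y axis, %) with its exact 95% interval. The day 7 pool had a median of 0 and a share of 40.3%, against 64.5% in the sham pool.

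The NF-kB list and the list of immediate early genes, which also respond to tissue dissociation, were set beside Cxcl2 in the same neutrophils. At day 7, 7 of the 15 NF-kB genes had the 20 UMIs in both pools together that a ratio needs, and of these 3 were past 1.5-fold lower than sham and 1 past 1.5-fold higher, with a median log2 ratio of -0.43, against -0.01 over all genes. Of the 14 immediate early genes, 11 were measured and 8 were past 1.5-fold lower at day 7 (background lower 10.9%), with a median log2 ratio of -0.86. Ccrl2, an atypical receptor that binds chemerin, had 177.3 CPM at day 7 against 527.8 CPM in sham (ratio 0.336, 0.255 to 0.439). Nfkbia, the NF-kB inhibitor, had 158.6 CPM at day 7 against 355.2 CPM in sham (0.447, 0.329 to 0.601). Il1b, the interleukin 1 beta gene, had 2232 CPM at day 7 against 2129 CPM in sham (1.05, 0.955 to 1.15), so not every gene of the NF-kB list was low with Cxcl2. At day 3 no immediate early gene was past 1.5-fold lower than sham (background lower 9.35%), 1 of 11 was past it higher, and 4 of 14 measured NF-kB genes were past it higher (background higher 14.1%). Because the dissociation genes moved with Cxcl2 at day 7, their values are given here, and their part in the Cxcl2 level was not tested. Cxcr2 had 838.4 CPM at day 3, 984.4 CPM at day 7 and 959.3 CPM at day 14, against 1159.6 CPM in sham, so no pool differed from sham in the receptor by 1.5-fold. Cxcr4, the receptor that rises on aged neutrophils, had 394.2 CPM at day 7 against 248.7 CPM in sham (1.59, 1.23 to 2.05).

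Within the sham, day 3 and day 7 pools, neutrophils with Cxcl2 also held more of the NF-kB list. In cells thinned to 2000 UMIs, the summed level of its 15 genes in cells with a Cxcl2 UMI over cells without one was 2.07 in the sham pool (95% interval 1.78 to 2.42), 1.21 at day 3 (1.12 to 1.31), 1.31 at day 7 (1.09 to 1.57) and 1.12 at day 14 (0.940 to 1.33). The day 14 interval included 1. Il1b alone gave most UMIs of this sum in each pool, at day 14 158 of 249 with Cxcl2 and 245 of 301 without it. For the 14 immediate early genes the ratio was 1.75, 1.24, 1.94 and 1.33. For the interferon response list it was 0.861, 1.49, 1.92 and 0.519, with no common direction. Of 9 NF-kB genes with at least 20 thinned UMIs, 5 were higher in cells with Cxcl2 in 4 of 4 pools: Birc3, Ccrl2, Nfkbiz, Ptgs2 and Tnfaip3. So were 5 of 11 immediate early genes, Dusp1, Fos, Ier2, Junb and Zfp36, and 1 of 6 interferon genes, Irf7, while over all 2915 genes with at least 20 thinned UMIs 6.66% were. For Birc3, Tnfaip3 and Irf7 the 95% interval of the ratio included 1 in each pool. At day 3, where they had most UMIs, the counts with and without Cxcl2 were 13 and 9, 15 and 12, and 10 and 6. Ptgs2, the prostaglandin synthase COX-2, had 769.2 CPM with Cxcl2 and 70.0 CPM without it at day 7, and 222.2 CPM with and 16.1 CPM without it in the sham pool. At day 14 it had 625.0 CPM with and 129.6 CPM without Cxcl2, and at day 3, the pool with the most cells, 617.6 CPM with and 460.5 CPM without it (ratio 1.34, 0.982 to 1.84). For Il1b the ratio was 1.73 in the sham pool (1.42 to 2.10), 1.08 at day 3 (0.978 to 1.19), 1.04 at day 7 (0.830 to 1.30) and 0.871 at day 14 (0.708 to 1.07), so the interval lay above 1 in the sham pool alone. Across the 329 thinned cells of all pools, Pearson's r of log2 levels with Cxcl2 was 0.404 for Fos and 0.296 for Ptgs2, weak values in sparse counts of cells that share 1 library.

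**Figure D4:**
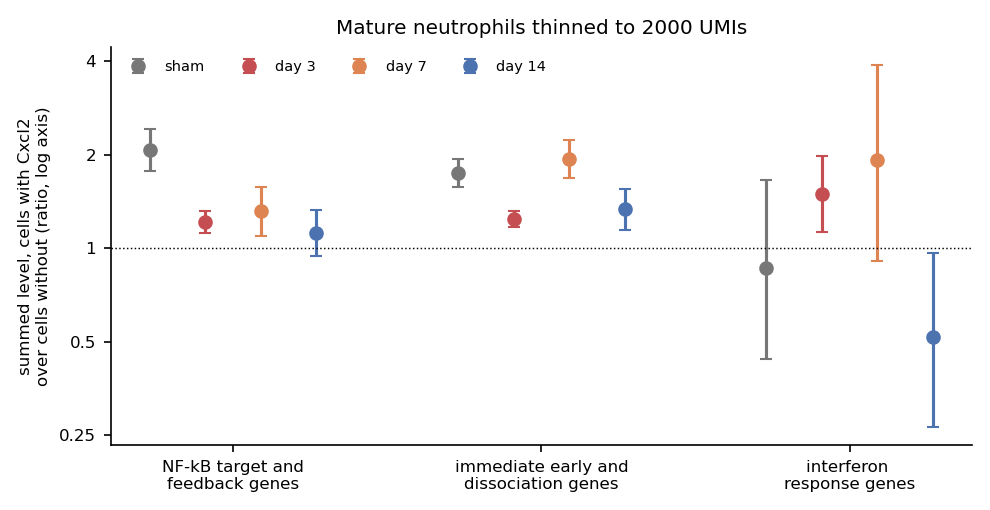
Summed level of 3 gene lists in mature neutrophils with a Cxcl2 UMI over those without (y axis, ratio, log axis), each cell thinned to 2000 UMIs, by pool, with exact 95% intervals that cover counting error only. The NF-kB ratios were 2.07, 1.21, 1.31 and 1.12 in the 4 pools, and the interferon ratios lay on both sides of 1.

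Immature neutrophils, which carry the secondary granule genes, held little Cxcl2 outside the day 3 pool. Their level was 29.8 CPM in the sham pool, 150.1 CPM at day 3, 14.3 CPM at day 7 and 25.1 CPM at day 14. The share of cells with a UMI was 20.0%, 18.8%, 23.1% and 20.8%, at a median of 16952 UMIs per cell, so the share did not follow the level. The day 3 level came from 6 cells with at least 10 UMIs out of 101, and 28.8% of it from 1 cell. Mast cells or basophils, known as producers of preformed mediators, had 1824 CPM at day 3 and 3824 CPM in the sham pool. Of the 218 day 3 UMIs 132 lay in 1 cell, and of the 224 sham UMIs 220 lay in 1 cell with 7 of 7 markers of its gate. The 1 progenitor with 45 UMIs at day 3 made up all Cxcl2 of the 14 progenitors of that pool.

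Among mononuclear phagocytes, Cxcl2 stood at 808.6 CPM in the sham pool (24 cells), 702.4 CPM at day 3 (35 cells), 1022 CPM at day 7 (13 cells) and 16.1 CPM at day 14 (9 cells). These sums mix different cells: macrophages, monocytes and dendritic cells were 6, 13 and 5 in the sham pool, 7, 22 and 6 at day 3, 8, 2 and 3 at day 7, and 4, 4 and 1 at day 14. In macrophages the level was 6732 CPM (6 cells), 785.9 CPM (7 cells), 2025 CPM (8 cells) and 43.2 CPM (4 cells) from sham to day 14, and the top cell held 66.8%, 43.5% and 61.7% of the UMIs in the first 3 pools. In monocytes it was 809.5 CPM at day 3, with 350 UMIs in 12 of 22 cells, against 12.7 CPM in the sham pool, with 3 UMIs in 2 of 13 cells. The top monocyte, which passed 2 gates, held 38.3% of the day 3 UMIs, and without it the level was 530.0 CPM. Dendritic cells held 6 Cxcl2 UMIs in 15 cells. Day 3 over sham was 0.869 (0.749 to 1.01) and day 7 over sham 1.26 (1.05 to 1.52) for the phagocytes summed, but without the top cell of each pool the day 3 ratio was 1.80 (1.43 to 2.27). Past 1.5-fold in these cells lay 33.6% of genes at day 3 and 41.6% at day 7.

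Mononuclear phagocytes were higher than the mean of the other lineages in 4 of the 5 genes, namely Cxcl1 (adjusted p = 7.33e-07), Cxcl2 (5.28e-14), Cxcl16 (2.2e-17) and Pf4 (3.05e-18), by edgeR. The gate with the highest Pf4 level, megakaryocyte or platelet barcodes at 8587 CPM against 259.4 CPM in phagocytes, was not among those lineages. Cxcl10 did not pass (adjusted p = 0.761). With DESeq2 the calls for Cxcl16 and Pf4 were lost (adjusted p = 0.348 and 0.195), and Cxcl1 got no adjusted p. Over all genes, 20.1% were higher in this comparison. Against mature neutrophils, Cxcl16, Pf4 and Cxcl1 were higher in the phagocytes (adjusted p = 3.49e-10, 2.86e-08 and 0.00789), while 34.7% of all genes were, and with DESeq2 Cxcl16 and Pf4 did not pass (adjusted p = 0.422 and 0.573). Cxcl2 was lower in phagocytes than in mature neutrophils, with a log2 difference of -1.58 (adjusted p = 0.00574), as were 18.7% of all genes. That call rested on the day 14 pool, with 16.1 CPM in phagocytes against 1146 CPM in neutrophils. Without it the adjusted p was 0.254 (0.232 with DESeq2 and all pools), and at day 7 the phagocytes had the higher level, 1022 CPM against 342.9 CPM.

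Cxcl1, the closest relative of Cxcl2 among the 5, had only 39 UMIs. Macrophages held 17 of them in 5 of 25 cells (62.1 CPM) and monocytes 10 in 2 cells, both at day 3. A day 3 monocyte held 9, and the next cells were a day 3 macrophage with 8, a sham T cell with 5 and a sham macrophage with 4. The day 3 monocyte and the day 3 macrophage each passed 2 gates. Mature neutrophils held 3 Cxcl1 UMIs in 352 cells (1.28 CPM), the level that 3 counts allow, in contrast to their Cxcl2. Of the 14 cells with Cxcl1, 12 also had Cxcl2 (85.7%), against 304 of 1271 cells without it (23.9%), at median depths of 12318 and 7370 UMIs. Of the 7 phagocytes with Cxcl1 all 7 had Pf4, against 18 of 74 without (24.3%), and 6 had Cxcl16, against 37 of 74 (50.0%). Of the 7, 5 were macrophages, and among macrophages alone Pf4 was found in 5 of 5 with Cxcl1 and 13 of 20 without it, and Cxcl16 in 4 of 5 and 14 of 20. These phagocytes with Cxcl1 were not deeper than the others, with medians of 12879 and 16074.5 UMIs.

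Cxcl16, the membrane-bound chemokine, was nearly restricted to mononuclear phagocytes. They held 177 of its 229 UMIs (77.3%), mixed cells a further 46 (20.1%), and all other cells 6. At least 1 UMI was found in 43 of 81 phagocytes (53.1%, median depth 16060 UMIs), against 2 of 352 mature neutrophils (0.568%, median depth 6119.5 UMIs). After thinning the shares were 22.2% and 0.304%. The level was 306.8 CPM in macrophages, 156.6 CPM in dendritic cells and 67.8 CPM in monocytes, summed over pools.
Over the pools, Cxcl16 in phagocytes was 34.6 CPM in the sham pool (18.4 to 59.1), 171.6 CPM at day 3 (140.8 to 207.2), 276.1 CPM at day 7 (205.0 to 364.1) and 48.3 CPM at day 14 (17.7 to 105.1). The day 3 and day 7 pools were high and the sham and day 14 pools low, with intervals that did not overlap between these pairs. UMIs were found in 7 of 24, 25 of 35, 9 of 13 and 2 of 9 cells. Day 3 over sham was 4.96 (2.78 to 9.62) and day 7 over sham 7.99 (4.27 to 16.0), both past the 1.5-fold line that 15.8% of genes crossed upwards at day 3 and likewise at day 7. The cell mix of the pools differed, so the gates were also read one by one. Macrophages had 134.2 CPM in the sham pool (3 of 6 cells with a UMI), 247.7 CPM at day 3 (7 of 7), 517.4 CPM at day 7 (7 of 8) and 129.7 CPM at day 14 (1 of 4). The macrophage interval at day 3 (165.9 to 355.8) overlapped that of sham (49.2 to 292.1), and the interval at day 7 (378.8 to 690.2) did not. Monocytes had 52 UMIs in 14 of 22 day 3 cells (120.3 CPM, 89.8 to 157.7), against 1 UMI in 13 sham cells (4.22 CPM, 0.107 to 23.5), and 0 UMIs in the 2 day 7 cells and the 4 day 14 cells. Dendritic cells had 63.5 CPM in the sham pool, 338.1 CPM at day 3, 70.7 CPM at day 7 and 122.6 CPM at day 14, from 5, 6, 3 and 1 cells. Over all pools and gates together, no phagocyte held more than 7.91% of the Cxcl16 UMIs of these cells. Within single pools and gates the top cell held more. Its share was 19.2% in day 3 monocytes, 31.0% in day 3 macrophages and 26.1% in day 7 macrophages. In day 3 dendritic cells it held 14 of 27 UMIs, with 204.5 CPM without it, and in day 14 macrophages all 3 UMIs.

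**Figure D5:**
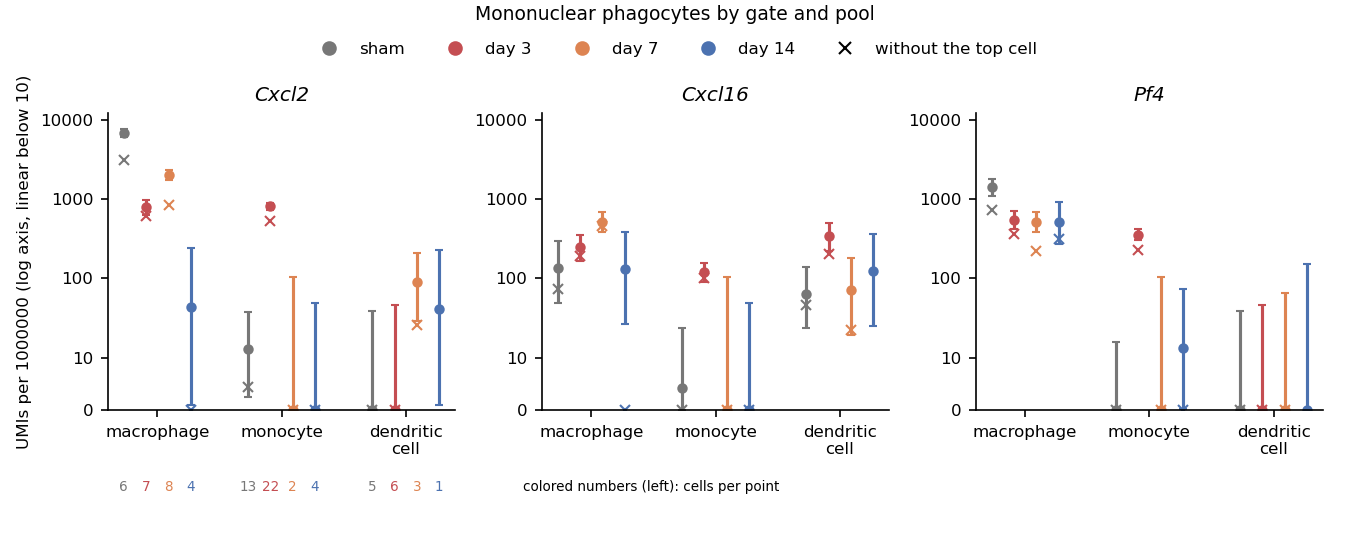
Levels of Cxcl2, Cxcl16 and Pf4 (y axis, UMIs per 1000000, log axis that is linear below 10) in macrophages, monocytes and dendritic cells by pool, with exact 95% Poisson intervals, and crosses for the level without the top cell. Cxcl16 in monocytes was 120.3 CPM at day 3 against 4.22 CPM in sham, and the Cxcl2 of sham macrophages was 6732 CPM with the top cell in it.

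Genes of the interferon list were also higher in the same phagocytes at day 3. Ifi27l2a, an interferon-induced gene, had 3561 CPM at day 3 against 444.2 CPM in sham, Irf7, an interferon response factor, 354.4 CPM against 34.6 CPM, and Irf1, another such factor, 108.1 CPM against 69.2 CPM. Of the 14 genes of the list 8 had the 20 UMIs in both pools together that a ratio needs, several of them through the day 3 cells, so no count over the list is read. At day 7, 10 of the 15 NF-kB genes (11 measured) and 11 of the 14 immediate early genes (12 measured) were past 1.5-fold higher, against 15.8% of all genes measured. Here too a gene could reach the 20 UMIs through the day 7 cells. Macrophages were 8 of 13 phagocytes at day 7 and 6 of 24 in sham, so these counts are not read further. Most of the 12 tissue macrophage genes are themselves markers of the macrophage gate, so no count over that list is read. The part of the cell mix and of these lists in the Cxcl16 level was not tested. Of the proteases that shed CXCL16, Adam17 was higher in phagocytes than in the mean of the other lineages (77.1 CPM in phagocytes, adjusted p = 0.00017 by edgeR), and Adam10 did not pass (79.4 CPM, adjusted p = 0.89). Adam10 had 38.7 CPM at day 7 against 95.8 CPM in sham in phagocytes (0.404, 0.152 to 0.920) and 79.5 CPM at day 3 (0.830, 0.530 to 1.31). The receptor Cxcr6 was found in other cells than its ligand: 384.1 CPM in T cells with UMIs in 40 of 85, 117.5 CPM in NK cells with UMIs in 17 of 84, and 0 in the 81 phagocytes. In T cells Cxcr6 was 335.8 CPM (256.8 to 431.3) in the sham pool, 260.7 CPM (199.9 to 334.2) at day 3, 491.9 CPM (386.2 to 617.5) at day 7 and 617.8 CPM (469.1 to 798.7) at day 14, from 29, 30, 16 and 10 cells.

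Platelet factor 4 was found mainly in megakaryocyte or platelet barcodes, macrophages and monocytes. Megakaryocyte or platelet barcodes held 1462 of 1839 Pf4 UMIs (79.5%): 945 in the 1 day 7 barcode of that gate, and 517 in 3 of 4 sham barcodes, of which the top ones had 380 and 125. These barcodes held 24322 to 44962 UMIs and 4 to 6 of the 8 markers of the gate, among them Itga2b and Gp9, which encode platelet adhesion receptor subunits. Ppbp, another alpha granule chemokine, had 4 UMIs, all in 1 of these barcodes. With the 945 UMIs left out, the level of Pf4 in the day 7 pool as a whole was 26.9 CPM, against 400.2 CPM with them.
Macrophages held 185 Pf4 UMIs and monocytes 155. Macrophages had Pf4 in 18 of 25 cells (median depth 11833 UMIs), against 1 of 100 B cells, and after thinning in 52.0% against 1.00%. The macrophage level was 1409 CPM in the sham pool (1083 to 1803), 546.7 CPM at day 3 (421.0 to 698.1), 517.4 CPM at day 7 (378.8 to 690.2) and 518.6 CPM at day 14 (268.0 to 905.9). The sham pool was the highest, but its top macrophage held 65.1% of the UMIs, and without it the level was 723.8 CPM. Monocytes had 154 Pf4 UMIs in 6 of 22 day 3 cells (356.2 CPM, 302.1 to 417.1), against 0 UMIs in 13 sham cells (upper limit 15.6 CPM). The top monocyte held 39.6% of the day 3 UMIs and the level without it was 225.5 CPM. The 2 monocytes with most Pf4, with 61 and 50 UMIs, passed 3 and 2 gates, and held 10 and 4 of the 52 day 3 Cxcl16 UMIs. Macrophage, monocyte and dendritic cell gates were treated as 1 family, so passing several of them did not make a cell mixed. Of the 7 monocytes with Pf4, 6 had Cxcl16 (85.7%), against 9 of 34 without Pf4 (26.5%), at medians of 20778 and 16814.5 UMIs. Of these 7, 6 were day 3 cells, and within the day 3 monocytes Cxcl16 was found in 6 of 6 with Pf4 and 8 of 16 without it. The 15 dendritic cells had no Pf4 UMI.

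For all phagocytes summed, Pf4 was 167.6 CPM in the sham pool, 346.4 CPM at day 3, 254.1 CPM at day 7 and 104.6 CPM at day 14. Day 3 over sham was 2.07 (1.56 to 2.78) and day 7 over sham 1.52 (1.01 to 2.25), with 154 of the 218 day 3 UMIs in monocytes and all 46 day 7 UMIs in macrophages. Thinned to 2000 UMIs per cell, the levels were 375.0, 342.9, 307.7 and 222.2 CPM, so the order of the pools turned and no direction is read from it. In mature neutrophils 22 Pf4 UMIs were counted, 21 of them in 1 day 7 barcode with 938 UMIs in all. That barcode alone made the day 7 ratio of 19.3 in neutrophils, and with 1 more marker required in the gate the ratio was 0. Of the 11 alpha granule and platelet genes, 3 reached the lineage test, which held no megakaryocyte or platelet barcodes. Thbs1 and F5, which encode thrombospondin 1 and coagulation factor V, were higher in phagocytes than in the mean of the other lineages tested (adjusted p = 9.62e-06 and 0.0106 by edgeR). Both were higher still in mature neutrophils (adjusted p of phagocytes over mature neutrophils = 2.25e-16 and 3.15e-12 by edgeR).

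Cxcl10, the interferon-induced chemokine, came mainly from a few cells of several lineages. NK cells held 34.5% of its UMIs and T cells 10.8%. The top 5 cells held 80.4% of its 148 UMIs: a mixed day 3 cell with 37, a day 7 NK cell with 24, a day 3 NK cell with 23, a sham plasma cell with 22 and a day 7 T cell with 13. Macrophages, monocytes and dendritic cells together held 4 UMIs in 3 of 81 cells, all sham. NK cells had the highest level among lineages of at least 20 cells, 73.1 CPM with UMIs in 5 of 84 cells (5.95%), against 2 of 352 mature neutrophils (0.568%). Without its top cell the NK level was 40.2 CPM. The interferon list had 15561 CPM with 12 of its genes detected in the mixed cell, 7754 CPM with 11 in the T cell and 3757 CPM with 8 in the day 3 NK cell. It had 559.7 CPM in the day 7 NK cell and 95.1 CPM in the plasma cell, so these 5 cells did not share a high interferon list. The mixed cell passed 2 gates, had 25898 UMIs and held 14 Cxcl16 UMIs, and whether it was more than 1 cell was not tested. In the B lineage Cxcl10 had 0 UMIs in each noise pool against 22 in sham, all from that 1 plasma cell.
CXCR3, the receptor for CXCL10, was counted in T cells (Cxcr3, 113.0 CPM, 27 of 85 cells) and NK cells (86.0 CPM, 33 of 84 cells). In T cells the level was 93.6 CPM in the sham pool, 117.7 CPM at day 3, 132.9 CPM at day 7 and 106.5 CPM at day 14, with 95% intervals that all overlapped. Mononuclear phagocytes had 8.39 CPM of Cxcr3, from 11 UMIs in 7 of 81 cells. This was above the mean of the other lineages, which is taken over log levels (log2 difference 1.60, adjusted p = 0.0328 by edgeR).

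Of the 10 other CXC chemokines looked for, Cxcl11 was not listed and 9 were. Only Cxcl14 reached 20 UMIs, with 79, and it was higher in phagocytes than in the mean of the other lineages (adjusted p = 7.88e-11 by edgeR). Cxcl14, a chemokine of epithelia and macrophages, had 102.3 CPM in macrophages (9 of 25 cells) and 56.3 CPM in monocytes (4 of 41 cells). Cxcl9, an interferon gamma target, had 19 UMIs, 14 of them in 1 mixed cell. Cxcl3 had 6 UMIs in 6 mature neutrophils, Cxcl5 6 and Cxcl12 1, and Cxcl13 and Cxcl17 had 0. Of the remaining receptors, Cxcr5 was found in B cells (63.8 CPM, 26 of 100 cells) and Cxcr4 had 785.7 CPM in B cells against 308.7 CPM in mature neutrophils.

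Genes with the most similar levels were sought across the 10 lineages with at least 20 cells, among 9533 genes, as Pearson's r of log2(CPM + 20). With Cxcl2 these were Tlr2 (r = 0.981), Klra2, Fcgr4, Sirpa and Csf2rb. With Cxcl16 they were Phf11d (r = 0.999), Fcrls, Adap2os, Mrc1 and Rab3il1, and with Pf4 Ifi207 (r = 0.998), P2ry6, Abca9, Ccl12 and Tmem51, all highest in macrophages. With Cxcl1 they were Axl (r = 0.992), Pros1, Cttnbp2nl, Acp2 and Hspa1a, likewise highest in macrophages. With Cxcl10 they were Chpf (r = 0.857), Exoc7, Kbtbd3, Rgs16 and Sar1a, highest in NK cells, where 2 cells held most of its UMIs. The lineages share 1 library, and the megakaryocyte gate, with 6 cells, was not among the 10, so the Pf4 likeness describes its macrophage side.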

How the data were processed

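Expression was measured as UMI counts in 1 library of living CD45+ cochlear cells, with hashtag antibodies for 4 pools. Counts per gene and barcode were deposited by the authors and came from Cell Ranger 3.1.0, per the file headers, with the mm10 build, per the submitters' processing notes. Gene and barcode filters are not given in the sources used here, and the labels name the capture kit as version 2 in one place and version 3 in another. The gene counts deposited beside the RNA and the hashtag matrix did not differ (difference 0 UMIs), so they were used once. Coordinates came from GENCODE vM21 (GRCm38).

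Barcodes needed 1 hashtag of at least 10 UMIs and 80%, at least 200 genes and at most 10% mitochondrial UMIs. The 1285 cells held 1873067 to 6681492 UMIs per pool. A lineage needed 3 markers and a scaled marker score of 0.25, the highest score deciding where several gates were passed (409 cells), and a cell whose score for another family reached 0.6 of its best was called mixed. These gate thresholds were set after seeing the data. Doublets between pools were removed by the hashtag rule, and those within a pool only as far as the mixed class catches them. Intervals are exact 95% Poisson, conditional Poisson and Clopper-Pearson intervals, and shares were repeated with cells thinned to 2000 UMIs. Ratios to sham needed at least 30 cells in both pools, or 10 for the mononuclear phagocytes (added after seeing the data), and 20 UMIs in both pools together. A difference past 1.5-fold was counted as called.

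Lineages were compared with edgeR 4.0.16 (quasi-likelihood) on UMIs summed over at least 5 cells per lineage and pool, with the 4 pools as samples, for genes with at least 20 UMIs. TMM factors were taken from 1428 genes with at least 1000 UMIs. This was chosen after simulated data showed a bias with all genes, and simulated data still gave somewhat more false calls than the threshold of 0.05 implies. The pool is a term, so a shift common to all lineages of a pool is taken out. These p-values measure the spread of lineages that remains across the 4 pools, with 1 estimate of the spread shared by all lineages. The pools differ in condition, so they are not replicates of each other. Alternatives were DESeq2 1.42.0, HTODemux of Seurat 5.3.0, other filters, gates, normalizations and designs, and each pool left out.

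The members and lists were chosen with earlier results of these data known. Beside the 5 genes, CXC chemokines, receptors and shedding proteases with at least 20 UMIs in all were to be named, and of the longer lists the 3 genes with most UMIs in the lineage described. For each of the 5, the 5 genes most like it across lineages with at least 20 cells were named, among genes with at least 50 UMIs. Genes with fewer UMIs, and further list genes such as Ccrl2, Nfkbia, Irf7, Ptgs2 and those higher in 4 of 4 pools, were named after their values were seen.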

Additional observations from a re-analysis of the deposited data

Results flagged for a closer look

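Some Cxcl2 lay in barcodes that no comparison used. The 197 barcodes with no single condition held 334 Cxcl2 UMIs in 19 barcodes (344.3 CPM, top barcode 80), against 328.4 CPM in the 1285 analysed cells. The 74 barcodes with a condition that failed the cell filter held 46 Cxcl2 UMIs in 6 barcodes, the top one with 20. The barcodes with no single condition also held 9 Cxcl10 UMIs and 17 Cxcl16 UMIs, in 3 and 5 barcodes. Barcodes that failed the cell filter held 62 Pf4 UMIs in 2 barcodes, 45 of them in 1 barcode. These counts are above the 3 UMIs that a count of 0 allows.

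The day 7 over sham ratio of Cxcl2 lay on different sides of 1 in the lineages, 1.26 in mononuclear phagocytes and 0.296 in mature neutrophils. With HTODemux condition calls the phagocyte ratio was 0.983 (0.814 to 1.18), on the same side of 1 as the neutrophils. The difference was not tested, since each condition is 1 pool, and 111 of the 185 day 7 phagocyte UMIs came from 1 cell. Read by gate, macrophages were lower at day 7, with 2025 CPM against 6732 CPM in sham. In sham, 201 of their 301 UMIs lay in 1 cell. Monocytes had 0 CPM at day 7 against 12.7 CPM in sham, and dendritic cells 88.4 CPM against 0 CPM. Macrophages were 8 of 13 phagocytes at day 7 and 6 of 24 in sham, and the part of this mix in the summed ratio was not tested.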

How the results depend on the processing

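Of 292 alternative values, 255 kept their direction and side of the threshold, or moved by less than their error. The cause of the other changes was not tested. Without the top cell of each pool, Cxcl2 at day 14 over sham was 0.854 in mature neutrophils, and in mononuclear phagocytes at day 3 over sham Cxcl2 was 1.80 and Pf4 4.24. With each cell weighted alike, these ratios were 0.800, 0.601 and 1.34, Cxcl2 at day 7 over sham in phagocytes was 1.57, and Cxcl1 at day 3 over sham turned to 0.716. With HTODemux condition calls, Cxcl2 in phagocytes was 0.730 at day 3 and 0.983 at day 7, relative to sham. Levels with HTODemux were 1694 CPM at day 3 and 1288 CPM at day 14 for Cxcl2 in mature neutrophils, and 1039.6 CPM for Cxcl2 and 215.4 CPM for Pf4 in sham phagocytes. With cells thinned to 2000 UMIs, Cxcl2 in mature neutrophils was 1655 CPM in sham, 2279.5 CPM at day 3 and 476.2 CPM at day 7. In phagocytes thinned Cxcl2 was 916.7, 528.6, 1731 and 0 CPM from sham to day 14, Cxcl16 214.3 CPM at day 3 and 0 CPM at day 14, and Pf4 375.0 CPM in sham and 222.2 CPM at day 14. With 1 more marker in the gate, Pf4 in mature neutrophils at day 7 over sham was 0.

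The Pf4 call in mature neutrophils over the other lineages was lost with DESeq2 (adjusted p = 0.514), and its direction turned with the stricter gate (0.731), without the top cells (1) and without the day 7 pool (range over left-out pools 5.22e-05 to 0.652, by edgeR). DESeq2 also gave adjusted p = 0.348 for Cxcl16 and 0.195 for Pf4 in phagocytes over the other lineages, and 0.232 for Cxcl2, 0.422 for Cxcl16 and 0.573 for Pf4 over mature neutrophils. Its adjusted p for Cxcl1 was NA. Leaving out each pool gave adjusted p of 4.01e-05 to 0.254 for Cxcl2 in phagocytes over mature neutrophils (edgeR), and 1636 to 2655 genes called in phagocytes over the other lineages, lowest without the day 3 pool, against 2647 with all pools. TMM factors from all tested genes moved the median log2 difference of all genes to -0.27, against -0.55, for mature neutrophils over the others, and to 0.39, against 0.60, for phagocytes over neutrophils, and turned no direction among the 5 genes. No paired analysis was possible because each condition is 1 pool and the result between conditions comes from no test. Depth limits Cxcl1, Cxcl10 and the day 14 phagocytes, of which there were 9.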
